A study of Mus musculus with 9 samples.

Results

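The phagocyte NADPH oxidase is described here through the mRNA of 6 of its subunits, Cybb, Cyba, Ncf1, Ncf4, Rac1 and Rac2. They were chosen by symbol, and all 6 are among the 12474 rows that each library's table holds. The cells are RAW264.7, a mouse macrophage-like line of labelled wild-type genotype, and 9 poly(A) RNA sequencing libraries form 3 groups of 3. Mock cells, the untreated reference, are set against M1 cells, which were polarized with mouse interferon gamma (50 ng/ml) and LPS (100 ng/ml). I cells were polarized in the same way in the presence of 20 mM potassium iodide. No treatment time is labelled, and no group analysed here received potassium with another anion, so iodide, potassium and added osmolarity cannot be told apart. All libraries come from 1 cell line, and nothing says that those of a group were separate cultures. The p-values therefore measure the spread between libraries, which may be technical.

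This oxidase carries electrons from NADPH across a membrane to oxygen and so makes superoxide, the first product of the respiratory burst with which phagocytes attack microbes. Cybb and Cyba encode the membrane pair, the catalytic heme-bearing chain and its smaller partner, which stabilise each other as proteins. Ncf1 and Ncf4 encode proteins that are cytosolic in resting cells: the organizer that is phosphorylated on stimulation, and a chain that reads a phosphoinositide on phagosomes. Rac1 and Rac2 encode small GTPases that complete the active complex. Rac2 is largely restricted to blood cells, while Rac1 is found in nearly all cells and also drives actin remodelling. Loss of the membrane or cytosolic chains causes chronic granulomatous disease.

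The values are FPKM, fragments scaled to gene length and to the library's total. Library totals recovered from them ran from 17431070 to 25470730 fragments. The 6 genes held between 1616 and 52118 fragments in a library, so counting error alone was 2.49% or less of a value. Scaling to the library total placed the median tested row lower by 0.23 on the log2 scale in M1 than in Mock, and median-of-ratios scaling, which sets the typical gene level, moved that median to 0.008. With that scaling 43.1% of tested rows were called higher and 42.6% lower in M1 than in Mock, 31.2% and 31.7% in I than in M1, and 42.7% and 42.9% in I than in Mock. Rows with at least 0.5 FPKM in at least 3 libraries were tested with limma, a linear model with pooled variances, on log2(FPKM + 1), and called at an adjusted p under 0.05. All 6 genes were above that minimum in every library. Each change below is given with the libraries scaled as deposited, and with another scaling where a call or direction differs. Of 8 macrophage markers 7 passed the filter on low values, with Lyz2 at 3155 FPKM in Mock and Cd14 at 1550 in M1. Mertk had a mean of 0.29 FPKM or less in every group. The summed level of the 8 ran from 4592 to 4686 FPKM in the Mock libraries, from 3257 to 3362 in those of M1, and from 2368 to 2483 in those of I. Lyz2 made up most of that sum in Mock, and its fall to 1138 FPKM in M1 outweighed rises of others. As deposited, 4 of the 7 tested markers were called higher in M1 (Cd14 from 752, Adgre1 from 21.7 to 103, Itgam and Cd68) and 3 lower (Lyz2, Csf1r from 343 to 69.8, and Fcgr1). With quantile scaling Cd68 was not called. Of 9 neutrophil markers only Csf3r is in the tables, and of 8 lymphocyte markers none is, so the absent ones are not analysed here. In bulk RNA, fewer cells making a transcript and less of it per cell cannot be told apart.

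Promoter windows of 300 bases, from 250 before to 50 after the RefSeq start, were at hand for 3 of the 6 genes, Cybb, Ncf1 and Cyba (RefSeq, GRCm38.p6, all on the minus strand and printed 5′ to 3′ in the direction of the gene). These 3 are shown because the table used holds them, not for how the genes moved. Of the GENCODE transcripts of each gene, 1 of 5 for Cybb, 4 of 7 for Ncf1 and 1 of 3 for Cyba start in the window. That of Cybb lies inside the gene's annotated interval, downstream of its outermost start. Capitals mark, on either strand, 2 GAAA boxes with any 2 bases between them, a pair that interferon regulatory factors read, the PU.1 core GAGGAA and the GC box GGGCGG.
Cybb, chrX:9469275-9469574: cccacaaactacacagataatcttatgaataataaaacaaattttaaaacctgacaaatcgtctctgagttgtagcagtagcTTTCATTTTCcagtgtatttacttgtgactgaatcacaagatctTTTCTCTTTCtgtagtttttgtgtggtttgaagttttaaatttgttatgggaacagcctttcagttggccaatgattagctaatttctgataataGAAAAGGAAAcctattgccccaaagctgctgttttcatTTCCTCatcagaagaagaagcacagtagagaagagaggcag
Ncf1, chr5:134229576-134229875: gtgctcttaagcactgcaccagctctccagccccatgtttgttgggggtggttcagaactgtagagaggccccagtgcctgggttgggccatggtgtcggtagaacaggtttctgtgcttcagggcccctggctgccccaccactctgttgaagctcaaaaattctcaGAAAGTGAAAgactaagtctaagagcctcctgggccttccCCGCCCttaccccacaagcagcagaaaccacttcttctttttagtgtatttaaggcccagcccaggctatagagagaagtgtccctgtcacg
Cyba, chr8:122432891-122433190: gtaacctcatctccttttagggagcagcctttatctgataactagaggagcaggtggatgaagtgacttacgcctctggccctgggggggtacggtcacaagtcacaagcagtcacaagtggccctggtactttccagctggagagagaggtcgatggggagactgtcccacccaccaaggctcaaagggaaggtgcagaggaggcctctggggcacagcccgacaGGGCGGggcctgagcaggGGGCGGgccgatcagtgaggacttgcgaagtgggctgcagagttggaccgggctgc
The window of Cybb holds the GAAA pair 3 times, with first bases at -168, -124 and -29 from the start, and that of Ncf1 holds it at -82. The motif is in 3.44% of 32851 windows of that length. Cybb also has the PU.1 core at 10 bases into the transcript, a word found in 28.3% of windows. Ncf1 has the GC box at -42, and Cyba has it at -24 and -6 and neither of the other words. GC boxes are in 35.7% of windows. A gamma-activated sequence, TTCNNNGAA, was matched at -88 in Ncf1 and in neither of the other windows, and is in 8.3% of all windows. Its match in Ncf1 overlaps the GAAA pair by 3 bases. The AP-1 word TGANTCA was matched at -139 in Cybb (7.81% of windows). The NFAT core TGGAAA was matched at -162 in Cybb, overlapping a GAAA pair, and at -119 in Cyba (21.4%). A form of the NF-kB site, GGGA and TTCC with any 2 bases between them (1.47%), and TATAAA (13.6%) were matched in none of the 3. Matches are letters in a window, and no binding was measured.

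With LPS and interferon gamma, the mRNAs of 3 partners of the catalytic chain rose. For Cybb itself no change was called as deposited and the other scalings gave opposite signs. Rac2 rose 2.19-fold, Cyba 1.80-fold and Ncf4 1.65-fold in M1, and these rises were called under all 3 scalings used (as deposited, median-of-ratios and quantile). Ncf1 was 1.10-fold higher as deposited, a call that turned to lower with quantile scaling, and Rac1, like Cybb, was not called as deposited and took opposite signs under the other scalings. In all, 4 of the 6 were called higher and 0 lower at a limma adjusted p under 0.05 as deposited, where 30.5% of the 11156 tested rows were called higher and 55.3% lower. With median-of-ratios scaling all 6 were called higher, where 43.1% of rows were. With quantile scaling 3 were called higher and 3 lower, where 4697 of the rows were called higher and 4788 lower. Since 85.8% of all tested rows were called in 1 direction or the other, a call by itself sets the subunits little apart, and their sizes carry more. In 5 of the 6, all but Rac1, every M1 library lay above every Mock library, as in 30.7% of tested rows, with 55.6% separated the other way and 86.4% in all.

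Cybb, on the X chromosome (ENSMUSG00000015340.10, chrX:9435252-9487771, minus strand, GRCm38), had the highest FPKM of the 6 in Mock. Its level was 352, 345 and 339.5 FPKM in the 3 Mock libraries and 363, 355 and 354 in the 3 M1 libraries. The lowest M1 library lay above the highest Mock library by under 2 FPKM, so the groups did not overlap but almost touched. The group means were 346 ± 6.4 and 357 ± 5 FPKM (SD over n = 3 libraries, as for all later means), a log2 fold change of 0.048 with a 95% interval of -0.018 to 0.12 (limma adjusted p = 0.154). With median-of-ratios scaling Cybb was called higher (log2 fold change 0.35) and with quantile scaling lower (-0.45), so its direction in M1 depends on the scaling.

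Cyba, which encodes the smaller membrane chain (ENSMUSG00000006519.11, chr8:122424776-122432930, minus strand), stood at 130, 141 and 141 FPKM in Mock and at 230, 261.5 and 249 in M1. Every M1 library was above every Mock library by a wide margin. Its mean rose from 137 ± 6.4 to 247 ± 16 FPKM (log2 fold change 0.84 ± 0.047 SE, limma adjusted p = 1.28e-08), more than in 91.2% of tested rows.

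Among the cytosolic chains, Ncf1 (ENSMUSG00000015950.13, chr5:134220053-134229625, minus strand) had 156, 159 and 161 FPKM in Mock and 174, 176 and 173 in M1. The groups were separate, by a distance much smaller than in Cyba. The log2 fold change was 0.14 ± 0.025 SE (limma adjusted p = 0.000317) and became -0.18 with quantile scaling (adjusted p = 8.84e-06). Ncf4 (ENSMUSG00000071715.12, chr15:78244801-78262580, plus strand) had the lowest FPKM of the 6 in Mock, at 45.8, 45.9 and 49.2. It stood at 78.7, 76.9 and 77 in M1, where it overtook Rac1. Its log2 fold change was 0.71 ± 0.035 SE (limma adjusted p = 4.09e-09).

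The GTPase genes parted in M1. Rac2 (ENSMUSG00000033220.7, chr15:78559167-78572783, minus strand) had 170.5, 179 and 173 FPKM in Mock and 377, 389.5 and 379 in M1, with no overlap. Its log2 fold change of 1.13 ± 0.027 SE (limma adjusted p = 1.23e-11) exceeded that of 94.5% of tested rows. Rac2 thus passed Cybb in FPKM and had the highest value of the 6. Rac1 (ENSMUSG00000001847.14, chr5:143503634-143528036, minus strand) stood at 61.6, 60.3 and 57.4 FPKM in Mock and at 55.3, 60.1 and 58.2 in M1, and the groups overlapped. Its log2 fold change of -0.047, with a 95% interval of -0.13 to 0.038, was not called as deposited (limma adjusted p = 0.271). It was 0.25 with median-of-ratios scaling (adjusted p = 0.000126) and -0.10 with quantile scaling (adjusted p = 0.0328), both called, in opposite directions.

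**Figure D1:**
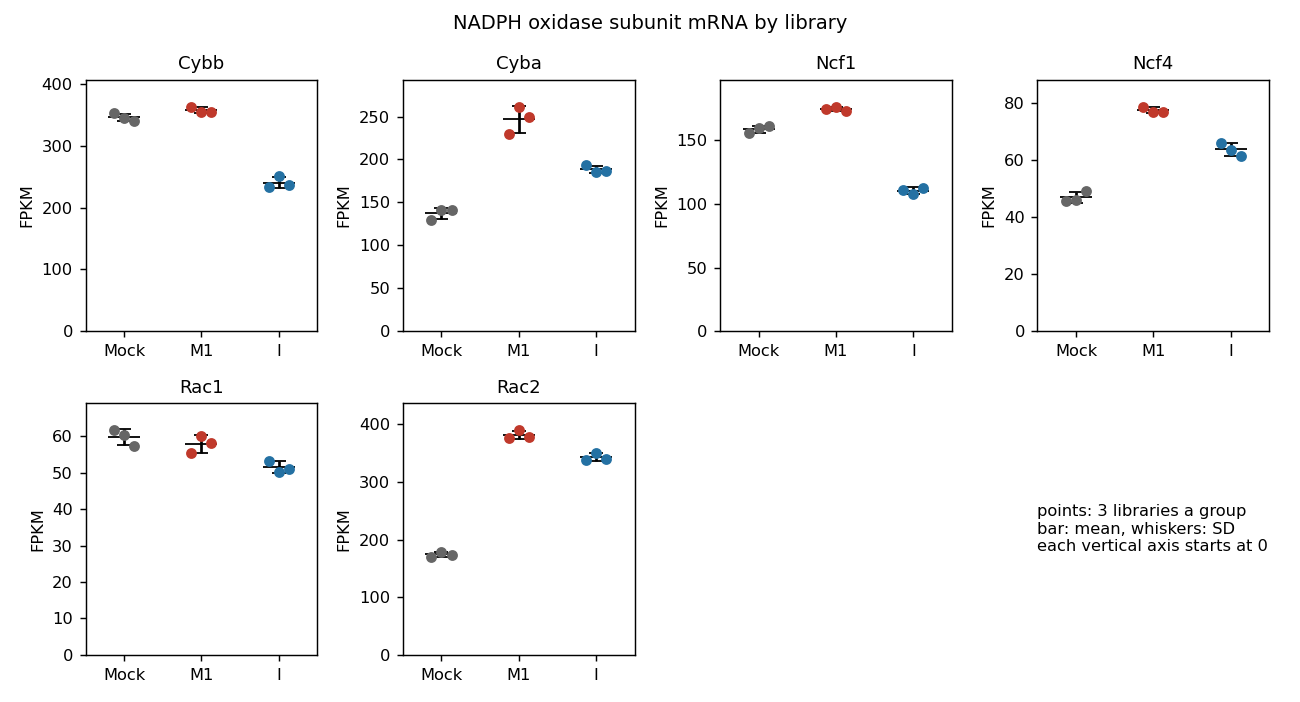
FPKM of each subunit gene (vertical axes, each from 0) in the 3 libraries of Mock, M1 and I (points), with the group mean and SD. Rac2, Cyba and Ncf4 sit higher in M1 than in Mock, and all 6 genes sit lower in I than in M1.

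With potassium iodide present during polarization, all 6 subunit mRNAs were lower than with polarization alone. The largest falls were in Ncf1, to 0.631 of its M1 level, and Cybb, to 0.672, followed by Cyba at 0.763 and Ncf4 at 0.822. Rac2 and Rac1 were at 0.900 and 0.889 of it. All 6 were called lower as deposited and 0 higher, where 39.3% of tested rows were called lower and 24.9% higher, 64.2% in all. In all 6 the groups did not overlap, as in 40.8% of tested rows in that direction, 26.4% in the other and 67.2% in all. The falls of Ncf1, Cybb, Cyba and Ncf4 were called under all 3 scalings, while that of Rac2 was not called with quantile scaling and that of Rac1 with neither alternative scaling. The median log2 fold change of the 6 was -0.33, against -0.065 over all tested rows.

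Cybb went down to 233, 251 and 237 FPKM in the 3 I libraries, all more than 100 below the lowest M1 library. The mean was 240 ± 9.3 FPKM and the log2 fold change from M1 was -0.57 ± 0.03 SE (limma adjusted p = 6.98e-08), with only 5.4% of tested rows further down. Cyba stood at 193, 186 and 186 FPKM, between its Mock and M1 levels and overlapping neither (log2 fold change from M1 -0.39 ± 0.047 SE, limma adjusted p = 3.38e-05). The mRNAs of both chains of the membrane pair were thus lower with iodide.

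Ncf1, the organizer gene, fell to 111, 108 and 113 FPKM in I. That is a log2 fold change of -0.66 ± 0.025 SE from M1 (limma adjusted p = 6.11e-09), with 3.5% of tested rows further down. Ncf4 had 66, 63.6 and 61.6 FPKM in I, all below the 3 M1 libraries and above the 3 Mock libraries (log2 fold change from M1 -0.28 ± 0.035 SE, limma adjusted p = 4.21e-05).

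Rac2 had 339, 351 and 341 FPKM in I, below the 3 M1 libraries but still far above Mock (log2 fold change from M1 -0.15 ± 0.027 SE, limma adjusted p = 0.000534, and -0.037 with quantile scaling, adjusted p = 0.3). Rac1 had 53.3, 50.1 and 51 FPKM, with its highest I library 2 FPKM under its lowest M1 library (log2 fold change from M1 -0.17 ± 0.038 SE, limma adjusted p = 0.00303). With median-of-ratios scaling that change was -0.092 (adjusted p = 0.0654) and with quantile scaling -0.051 (adjusted p = 0.28). The macrophage markers Lyz2 (1138 to 675 FPKM), Cd68 (323.5 to 181) and Adgre1 (103 to 35.1) were lower in I too, and Csf1r was higher (69.8 to 96.1). Csf3r, the only listed neutrophil marker in the tables, fell from 5.72 to 2.26 FPKM, and by itself it identifies no cell type. Of the 7 tested macrophage markers 6 were called lower, and their part in the subunit result was not tested.

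**Figure D2:**
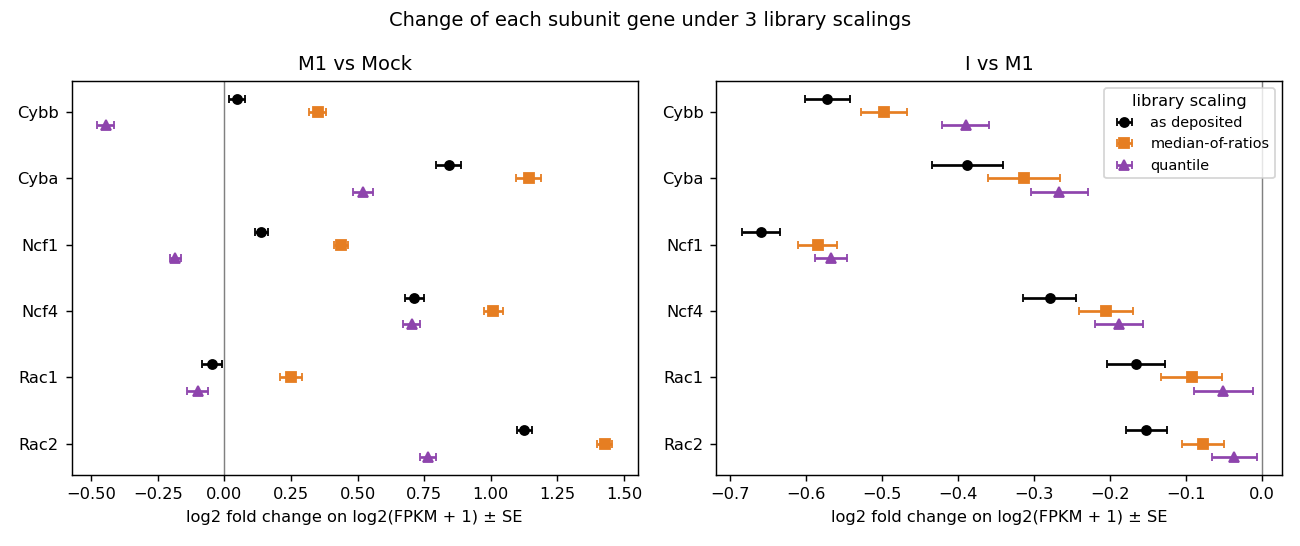
Log2 fold change with SE (horizontal axes, on log2(FPKM + 1)) of each gene in M1 vs Mock on the left and I vs M1 on the right, with the libraries scaled as deposited, by median of ratios or by quantiles. In M1 the signs for Cybb, Ncf1 and Rac1 differ between scalings, whereas in I every point of the 6 genes is below 0.

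**Figure D3:**
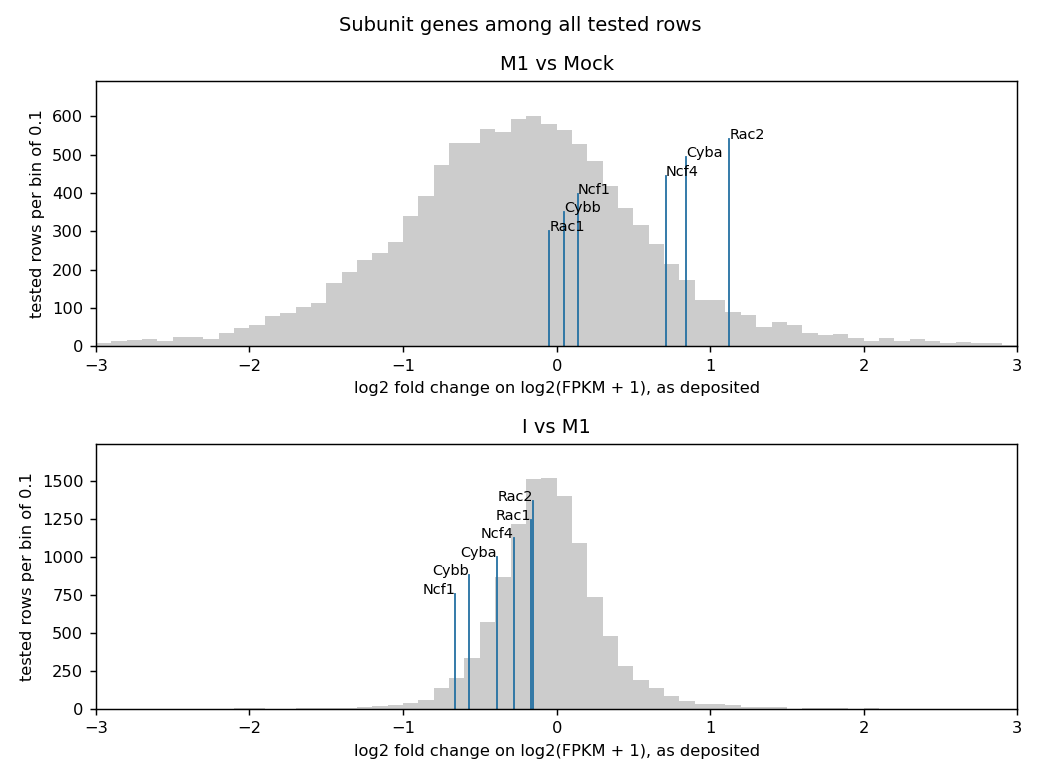
Number of tested rows per log2 fold change bin of 0.1 (grey) with the position of each of the 6 genes (blue), as deposited. Rows beyond 3 in size lie outside the axis (102 in the M1 vs Mock panel, 4 in the I vs M1 panel), and Ncf1 and Cybb lie in the lower tail of I vs M1.

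Set against untreated cells, iodide-treated polarized cells held 3 subunit mRNAs above the resting level and 3 below it. Higher in I than in Mock were Rac2 (1.97-fold), Cyba (1.37-fold) and Ncf4 (1.36-fold), called under each of the 3 scalings, where 28.2% of tested rows were called higher as deposited. Lower were Cybb and Ncf1, each at 0.695 of Mock (log2 fold changes -0.52 ± 0.03 and -0.52 ± 0.025 SE, limma adjusted p = 1.65e-08 and 3.35e-09), where 58.6% of rows were called lower and 86.8% either way. None of the 6 overlapped between I and Mock, as in 87.1% of tested rows, with 28.5% higher and 58.6% lower. Cybb and Ncf1 kept that direction and call with median-of-ratios scaling, at -0.15 for both, and with quantile scaling, at -0.84 and -0.75. Rac1 was at 0.861 of Mock as deposited (log2 fold change -0.21 ± 0.038 SE, limma adjusted p = 0.000293) but was higher by 0.16 with median-of-ratios scaling (adjusted p = 0.00337). The 3 comparisons share libraries, so they are given side by side and not as separate support for each other.

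The order in FPKM changed once. In Mock it was Cybb, Rac2, Ncf1, Cyba, Rac1 and Ncf4, from 346 down to 46.9 FPKM. In M1 and in I it was Rac2, Cybb, Cyba, Ncf1, Ncf4 and Rac1, from 382 down to 57.9 and from 343 down to 51.5. No neighbours in these orders had overlapping ranges within a group. FPKM corrects for length only, through the merged exons of each gene, and differences in how well 2 transcripts are captured are not corrected. Merged exons came to 5808 bases for Cybb and 3103 for Rac2. They can be longer than the transcript a cell makes, so the order between genes depends on that length.

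Ratios between subunit genes within a library do not depend on any factor that scales a whole library. Quantile scaling is not such a factor and can change them, and the ratios here use FPKM as deposited. The ratio of Cybb to Cyba, the membrane pair, was 2.71, 2.44 and 2.41 in Mock, 1.58, 1.36 and 1.42 in M1, and 1.21, 1.35 and 1.27 in I. Mock was apart from both other groups, and M1 and I nearly touched. Its mean dropped from 2.52 ± 0.16 to 1.45 ± 0.11 in M1 and was 1.28 ± 0.071 in I. With 3 libraries against 3, an exact two-sided permutation test cannot give a p below 0.1, and it gave p = 0.1 for each pair of groups here. That value fell on 11 of 12 such comparisons, over 4 ratios and 3 pairs of groups (Benjamini-Hochberg adjusted p = 0.109), so no ratio could pass a threshold of 0.05.

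The ratio of Ncf1 to Ncf4 was 3.401, 3.47 and 3.27 in Mock, 2.22, 2.30 and 2.25 in M1, and 1.68, 1.69 and 1.83 in I, without overlap. That of Rac2 to Rac1 was 2.77, 2.97 and 3.02 in Mock, 6.81, 6.48 and 6.51 in M1, and 6.36, 6.999 and 6.68 in I. The GTPase ratio thus more than doubled with polarization, on the log2 scale by 1.18, and was not seen to move further with iodide (difference 0.016 on the log2 scale, exact permutation p = 0.7). For this ratio the range of the I libraries enclosed that of the M1 libraries. With quantile scaling, the log2 fold changes in M1 vs Mock were 0.76 for Rac2 and -0.10 for Rac1, closer together than as deposited.

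The ratio of Cybb to Rac2 was added once the values were known. It was 2.07, 1.925 and 1.96 in the Mock libraries, 0.963, 0.911 and 0.935 in those of M1, and 0.688, 0.715 and 0.695 in those of I, without overlap. In FPKM, the catalytic chain's mRNA thus went from above that of Rac2 to below it. Which of the 2 is higher depends on the gene lengths used. The mean went from 1.98 ± 0.074 in Mock to 0.94 ± 0.026 in M1 and 0.70 ± 0.014 in I.

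**Figure D4:**
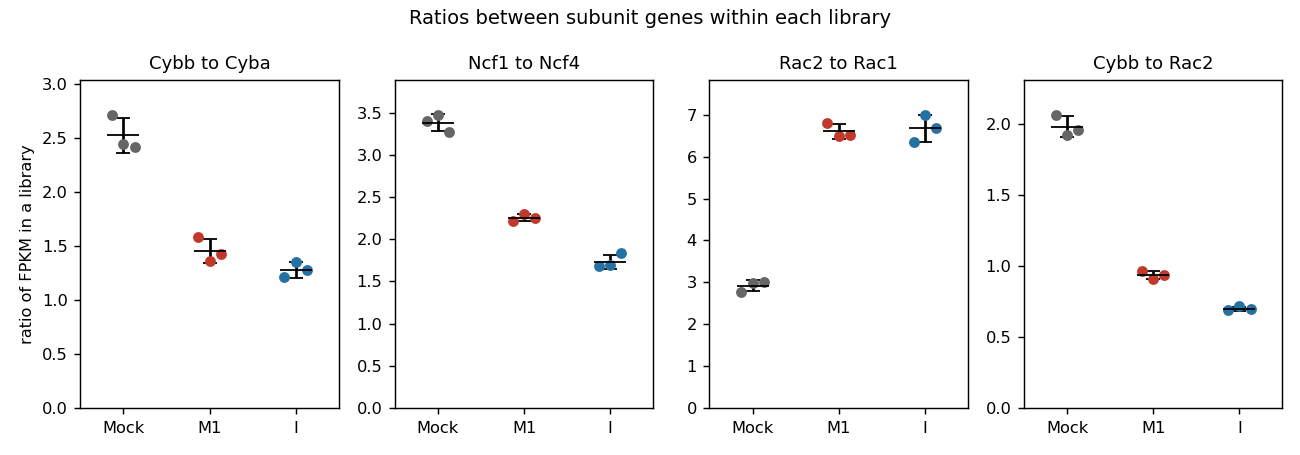
Ratio of FPKM between 2 subunit genes within a library (vertical axes, from 0) for the 3 libraries of each group (points), with mean and SD. The ratio of Ncf1 to Ncf4 goes from 3.38 to 2.25 to 1.73, and that of Rac2 to Rac1 rises from 2.92 to 6.60 and stays near it at 6.68.

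The subunit genes closest in pattern over the 9 libraries were not those of the membrane pair. Likeness was measured as the root mean square difference between 2 genes in log2(FPKM + 1), each centred on its own mean, over all 9 libraries. Cybb and Ncf1, a membrane chain and a cytosolic one, were the closest of the 15 pairs of the 6 at 0.064, followed by Cyba and Ncf4 at 0.083. The partners of the membrane pair, Cybb and Cyba, were at 0.43. Over all tested rows, the genes nearest to Cybb were the phosphatase gene Ptpra (0.040), Sema4a (0.044) and the mitochondrial ribosome gene Mrpl13 (0.045). Nearest to Ncf1 were the ADP/ATP carrier gene Slc25a5 (0.038), Bcl2 (0.043) and Tfcp2l1 (0.051). Slc25a5 had mean levels of 491, 512 and 332 FPKM in the Mock, M1 and I groups. Among the 3 nearest to Cyba were Pfdn5 (0.048) and Ninj1 (0.052), and the 3 nearest to Ncf4 were Eif1 (0.027), Ndufa13 (0.038) and Crcp (0.042). Nearest to Rac2 were Acot7 (0.021), Stk40 (0.025) and Myo1e (0.031), and nearest to Rac1 were the elongation factor gene Eef2 (0.033) and Senp3 (0.035). No other subunit gene was among the 3 nearest to any of the 6.

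Genes around the oxidase were described from lists that hold none of the 6. In the list of the oxidase family and its assembly, 9 of 18 genes are in the tables and 6 were tested. Of these 3 were higher and 2 lower in M1, and 3 higher and 3 lower in I than in M1 (median log2 fold changes 0.26 and 0.0073, against -0.23 and -0.065 over all tested rows). With median-of-ratios scaling the counts were 5 higher and 1 lower in M1, and 3 higher and 2 lower in I. Over all tested rows, 30.5% were higher and 55.3% lower in M1 as deposited, and 43.1% and 42.6% with median-of-ratios scaling. For I vs M1 these shares were 24.9% and 39.3%, and 31.2% and 31.7%. Cybc1, a chaperone without which the membrane pair is not made stably, had a mean FPKM of 14.8 ± 0.39 in Mock. It rose to 20.6 ± 0.21 with polarization and 23 ± 0.31 with iodide (limma adjusted p = 5.14e-08 and 0.00101), called under all 3 scalings. In I vs M1 Cybc1 thus rose where Cybb fell. Nrros, whose protein limits the amount of the catalytic chain, was at 72.4 ± 1.1 FPKM in Mock, fell to 17.4 ± 0.48 with polarization and to 13.6 ± 0.35 with iodide added. P4hb, a protein disulfide isomerase reported to bind the oxidase, rose from 464 ± 10 to 1312 ± 5.7 and 1660 ± 8.2 FPKM. Nox1, another catalytic chain (group means of 0.13 FPKM or less), and Noxo1, its organizer (0.33 or less), were under the filter.

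Of 24 regulators of Rac, 21 were tested, with 6 higher and 11 lower in M1 and 10 higher and 8 lower in I vs M1. With median-of-ratios scaling they were 10 and 11 in M1, and 11 and 7 in I. Over all tested rows 30.5% were called higher and 55.3% lower in M1 as deposited, and 24.9% and 39.3% in I vs M1. With median-of-ratios scaling those shares were 43.1% and 42.6% in M1, and 31.2% and 31.7% in I vs M1. The list's medians were -0.44 and 0.087, against -0.23 and -0.065 over all rows. Prex1, an exchange factor that loads Rac2 in phagocytes, was called higher in I, from 15.4 ± 0.49 to 20.9 ± 0.21 FPKM (log2 fold change 0.42 ± 0.031 SE, limma adjusted p = 8.64e-07). Arhgdib, an inhibitor that holds Rac in the cytosol, fell from 177 ± 4.1 to 134 ± 1.5 (-0.40 ± 0.024 SE, limma adjusted p = 1.79e-07), and Arhgef7 from 23 ± 0.016 to 14.1 ± 0.25. In M1 the smallest p-values belonged to falls of Racgap1, Arhgef6 and Arhgap17, of which Arhgef6 went from 49.5 ± 1.2 to 15 ± 0.69 FPKM.

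Kinases and phosphoinositide enzymes of the oxidase counted 7 higher and 15 lower of 24 in M1, and 10 higher and 6 lower with iodide, or 10 and 10 and then 15 and 3 with median-of-ratios scaling, and 9 and 11 and then 13 and 4 with quantile scaling. Over all rows the shares as deposited were 30.5% higher and 55.3% lower in M1, and 24.9% and 39.3% with iodide. With median-of-ratios scaling they were 43.1% and 42.6%, then 31.2% and 31.7%. With quantile scaling 4697 of the 11156 rows were called higher and 4788 lower in M1, and 3364 and 3610 with iodide. Syk, the kinase behind Fc receptor triggering, rose from 6.09 ± 0.21 to 24.3 ± 0.5 and 38.9 ± 0.92 FPKM. Pik3ca, a catalytic subunit of phosphoinositide 3-kinase, went from 12.7 ± 0.11 in Mock to 8.7 ± 0.44 in M1 and rose to 15.8 ± 0.34 with iodide. Mapk3 rose from 39.9 ± 1.3 in Mock to 114 ± 2.9 in M1 and fell to 79.8 ± 2.1 with iodide, still above Mock.

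Genes that supply NADPH, the electron donor, were called lower with iodide in 8 of 8 tested cases, where 39.3% of all tested rows were (median log2 fold change -0.23, against -0.065 over all rows). The count was 5 of 8 with median-of-ratios scaling, where 31.7% of all rows were called lower. It was 6 of 8 with quantile scaling, where 3610 of the 11156 rows were called lower. Nadk, which makes NADP from NAD, fell from 75.7 ± 1.6 to 49.4 ± 0.74 FPKM (-0.61 ± 0.024 SE, limma adjusted p = 8.85e-09), Taldo1 from 84.8 ± 4.6 to 62.9 ± 2.4 and Idh1 from 57.4 ± 0.32 to 45.9 ± 0.84. In M1, 6 of the 8 were called lower and 2 higher as deposited, where 55.3% of all rows were called lower. These counts were 4 and 2 with median-of-ratios scaling, where 42.6% of all rows were called lower. They were 7 and 1 with quantile scaling, where 4788 of the 11156 rows were called lower. Pgd of the pentose phosphate pathway fell from 89 ± 0.9 to 47 ± 0.37. G6pdx of the same pathway, named after its values were seen, went from 111 ± 0.53 in Mock to 122.5 ± 1.6 in M1 (limma adjusted p = 0.000118). Its log2 fold change was 0.14 as deposited, 0.44 with median-of-ratios scaling and -0.11 with quantile scaling.

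Enzymes that remove superoxide and peroxide were called lower with iodide in 6 of 9 cases with 1 higher, the same counts under all 3 scalings. Their median log2 fold change was -0.39 as deposited, against -0.065 over all tested rows. Of all tested rows, 39.3% were called lower and 24.9% higher with iodide as deposited, and 31.7% and 31.2% with median-of-ratios scaling. With quantile scaling 3610 of the 11156 rows were called lower with iodide and 3364 higher. In M1, 5 were called higher and 3 lower as deposited, 7 and 2 with median-of-ratios scaling, and 5 and 4 with quantile scaling. Over all rows the shares in M1 were 30.5% higher and 55.3% lower as deposited, and 43.1% and 42.6% with median-of-ratios scaling. With quantile scaling 4697 of the 11156 rows were called higher in M1 and 4788 lower. Gpx1 fell from 154 ± 2.2 to 109 ± 5.6 FPKM, while Prdx5, up from 48.8 ± 3 in Mock to 602.5 ± 19 in M1, was 570 ± 16 in I and not called between the last 2.

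Known regulators of the oxidase genes moved both ways, 4 higher and 10 lower of 15 in M1 and 7 higher and 6 lower with iodide as deposited (medians -0.62 and 0.14). In M1 the counts were 6 higher and 9 lower with median-of-ratios scaling and 5 and 9 with quantile scaling, and with iodide 8 and 4 under both. Over all rows as deposited, 30.5% were called higher and 55.3% lower in M1, and 24.9% and 39.3% with iodide. With median-of-ratios scaling these shares were 43.1% and 42.6%, then 31.2% and 31.7%. With quantile scaling 4697 of the 11156 rows were called higher and 4788 lower in M1, and 3364 and 3610 with iodide. Irf8, which with PU.1 acts on Cybb in myeloid cells, rose from 31.4 ± 0.5 to 269 ± 9 FPKM in M1 and was 244 ± 3.1 in I, a change from M1 called as deposited only (log2 fold change -0.14, with -0.061 by median of ratios and 0.016 by quantiles). Irf1 rose from 14.1 ± 0.31 to 36.5 ± 0.34 and then 43.7 ± 0.44, and Cebpb from 69.4 ± 2.9 to 212 ± 15 and 279 ± 6.7. Spi1, which encodes PU.1 and was named after its values were seen, had 97.4 ± 3 FPKM in Mock, 74.1 ± 3.3 with polarization and 60.8 ± 1.7 with iodide added.

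**Figure D5:**
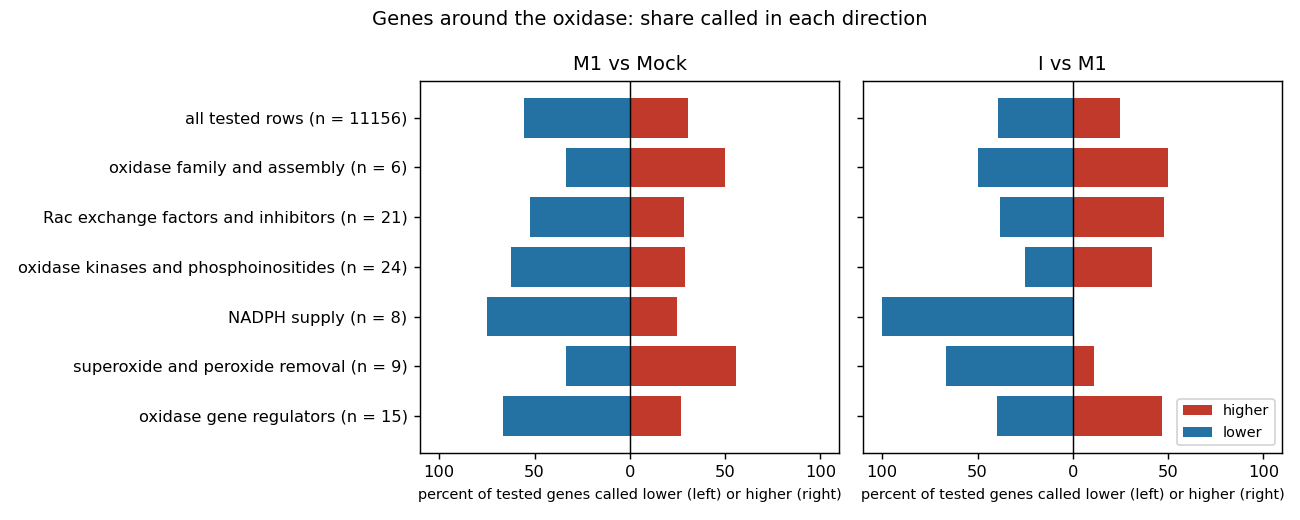
Percent of tested genes called lower (blue, to the left) or higher (red, to the right) at a limma adjusted p under 0.05, as deposited, for all tested rows and for 6 lists of genes around the oxidase, in M1 vs Mock (left) and I vs M1 (right). In I vs M1 the 8 NADPH supply genes are all on the lower side, while oxidase assembly and Rac regulator genes lie on both sides.

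3 of the 6 genes overlap a gene on the opposite strand in GENCODE vM21. The 3′ end of Ncf1 overlaps Gtf2ird2, that of Rac1 overlaps Daglb (and the unclassified model Gm42502 lies within Rac1), and Cyba lies inside the long model Gm20388. The strand use of the authors' counting is not given in the sources used here, so reads in those overlaps could come from either gene. Over the 3 groups, Mock first and I last, Gtf2ird2 had means of 4.43, 1.83 and 1.46 FPKM and Daglb 5.82, 1.66 and 1.33, well under Ncf1 and Rac1, and the part of those reads in either gene was not tested.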

How the data were processed

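Poly(A) RNA from RAW264.7 cells was sequenced in 3 Mock, 3 M1 and 3 I libraries. The authors deposited 1 table of FPKM per library, a unit inferred here since no header names it. Reads went through fastp 0.20.1, HISAT2 2.2.1 and featureCounts 2.0.1 (Subread), with the GRCm38 build, per the submitters' processing notes. Annotation and strand setting: not given in the sources used here. No value in the tables is 0, and genes outside them are not analysed here.

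Merged exon lengths from GENCODE vM21 matched 12204 rows, and FPKM times length gave whole fragments, within 0.05, in 98.4% to 98.6% of values, which yields the library totals. Libraries of a group differed by more than sampling noise (mean chi-square per gene 2.03 to 3.72). Rows with at least 0.5 FPKM in at least 3 libraries were tested (11156, with 1318 removed) with limma 3.58.1 in R 4.3.3 on log2(FPKM + 1), 1 model for all 9 libraries, moderated variances with an intensity trend, and Benjamini-Hochberg adjustment over all rows. Log2 fold changes are on that scale, which understates low genes. The places of the subunit genes among all tested rows use the same scale, so low rows count there as less changed. Printed folds are ratios of mean FPKM. The fit was tested on simulated data.

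The 6 genes and the lists were chosen with earlier results of these data known. From each list up to 3 genes with the smallest p in M1 vs Mock and in I vs M1 were open to naming, beside the 3 nearest in pattern to each of the 6; the text names part of them, picked after the values were seen. Alternatives were another pseudocount, no filter, median-of-ratios (RLE) and quantile scaling, limma-voom on recovered fragments, fewer libraries, no trend and a replicate block. Same-numbered libraries did not deviate together, so the main model has no block. Promoters came from RefSeq (GRCm38.p6). Some items are not reported here.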

Additional observations from a re-analysis of the deposited data

How the results depend on the processing

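Of 306 alternative values for the 6 genes over the 3 comparisons, 297 kept their direction and their side of the threshold. Many of these could not change direction. Dropping the filter or the trend, adding the block, or leaving out libraries of a group not compared keeps the log2 fold change as it was. Only the adjusted p can move there, so the count of 297 says little about direction. The other 9 came from scaling. With quantile scaling, M1 vs Mock turned to -0.45 for Cybb and -0.18 for Ncf1 and became called at -0.10 for Rac1. That gave 3 subunit genes called lower where 0 were as deposited, while 4788 of all 11156 tested rows were called lower under quantile scaling. With the same scaling, I vs M1 was no longer called for Rac1 (-0.051) and Rac2 (-0.037). With median-of-ratios scaling, M1 vs Mock was called at 0.35 for Cybb and turned to 0.25 for Rac1. All 6 subunit genes were then called higher in M1, against 4 as deposited. I vs M1 for Rac1 was no longer called (-0.092) with that scaling, and I vs Mock for Rac1 turned to 0.16. Under it 4762 rows were higher in I than in Mock against 3146 as deposited, and 43.1% of rows were higher in M1 than in Mock against 30.5%. Over all tested rows the median log2 fold change went from -0.298 to -0.003 in I vs Mock with that scaling, and from -0.232 to 0.008 in M1 vs Mock. What lies behind the shift of the median as deposited was not tested. Leaving out 1 library at a time moved the Rac2 to Rac1 log2 ratio for I vs M1 between -0.018 and 0.051, and its sign turned without I replicate 2. A replicate block changed no call of the 6 genes: Ncf1 in I vs M1 stayed at -0.66, and 2713 rows were called higher and 4319 lower in that comparison, against 2775 and 4382 without the block. Same-numbered libraries correlated at -0.12 to 0.05 in their deviations from the group means, so the numbers were not taken as pairs.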

Other observations

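Ncf4 and Rac2 lie 297 kb apart on chromosome 15, and 4 of the 10 protein-coding genes between them were tested. These values were looked at after those of the subunit genes. Csf2rb, the common beta chain of the receptors for GM-CSF and interleukin 5 (chr15:78325752-78353847), rose from 4.09 ± 0.1 FPKM in Mock to 10.4 ± 0.47 in M1 and 13.3 ± 0.34 in I (limma adjusted p = 2.63e-10 and 4.85e-05). Its neighbour Csf2rb2, a close copy that can share its reads, went from 1.54 ± 0.1 to 4.62 ± 0.36 and 6.19 ± 0.29. Both were called in both steps under all 3 scalings. Mpst, a sulfurtransferase gene, was at 11 ± 0.58, 13.6 ± 0.74 and 8.69 ± 0.69 FPKM, and its fall with iodide, 0.59 on the log2 scale, was called under all 3 scalings. Kctd17 was at 10.7 ± 0.59, 9.2 ± 0.5 and 7.56 ± 0.45, called lower in M1 as deposited only. Genes of this stretch thus moved both ways with iodide. The mRNAs of Ncf4, Rac2, Mpst and Kctd17 were lower and those of Csf2rb and Csf2rb2 higher, Rac2 with the exception under quantile scaling given above.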
